A study of Mus musculus with 5 samples.

Results

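The cells described here are all those of a pair of aorta libraries on an ApoE background, 1 labelled DKO and 1 labelled WT, read by single-cell RNA sequencing. They were taken by the condition given for each cell in the deposited cell table, and they number 5600 of the 14878 cells in the series, 2800 from each library. The series deals with epsins of the liver and blood lipids in atherosclerosis, and its other 3 libraries are from liver. The labels give the aorta libraries the terms DKO or WT, Aorta, ApoE and S1, and both libraries carry the ApoE term. DKO is not spelled out for the aorta. The only preparation that the labels describe is of liver, from 3 mice named WT and Liver-DKO, and the sources do not state how many mice of what age and sex gave the aortas, nor in which cells a deletion was made. With 1 library on each side there is no replicate, so no test was made and every difference below is between these libraries and not between genotypes.

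Epsins are adaptor proteins that bind ubiquitinated cargo and help clathrin take it into the cell. The wall of the aorta consists mainly of contractile smooth muscle cells and of fibroblasts in the outer layer, with an inner lining of endothelium. In atherosclerosis macrophages and T cells enter the wall, and smooth muscle cells can lose contractile proteins and take on genes of fibroblasts, cartilage and bone, which is known to go along with calcification of plaques.

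The DKO-labelled library held 6228458 unique molecular identifiers (UMIs, each counting 1 captured RNA molecule) and the WT-labelled library 6383082, with medians of 1773.5 and 1709.5 a cell. Counts were summed over the cells of each subtype named by the authors and scaled to counts per 1000000 UMIs of that subtype (CPM), and the ratio is always DKO-labelled over WT-labelled. Ratios carry exact 95% intervals that cover counting error only, not variation between mice or preparations. A gene was counted as higher or lower where its ratio passed 1.5-fold and at least 100 UMIs were summed over the libraries. Of 23 subtypes, 15 held 50 or more cells in both libraries and were compared. The libraries shared 4 cell barcodes.

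The authors' names did not always match the genes that led each subtype, and subtypes are called here by the authors' codes. AP1 and AP2, which the authors call adipocytes, were led by fibroblast genes, among them Serpinf1, Fbln1 and Gsn in AP1 and Igfbp6, Mfap5, Dpt and C3 in AP2, with Pi16 in both. In AP1 the adipocyte markers summed to 1.57 CPM in the DKO-labelled and 4.47 CPM in the WT-labelled library, with Plin1, Cidec, Lep and Ucp1 at 0 in both, against 35398.7 and 32620.4 CPM for the fibroblast markers. HS1, HS2 and HS3 carry the name of haematopoietic stem cells. HS3 was led by cartilage and bone genes (Col2a1, Snorc, Chad, Ibsp, Comp, Prg4, Hapln1 and Acan), HS2 by Mmp13, Hp, Sfrp2, Lcn2 and Ereg, and HS1 by Taco1, Fancc, Unc5c and Kcnab1. FB1, named for fibroblasts, was led by Col10a1, Spp1, Thbs1, Ecrg4 and Bmp2. VS1 and VS2 were led by smooth muscle genes such as Acta2 and Myh11, whereas VS3 was led by Gm42418, Camk1d, AY036118 and Lars2, with 23008.8 and 22931.1 CPM of smooth muscle markers. Genes that led a subtype define it and are not named as differences within it, and counts over subtypes that take them in say so.

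Smooth muscle subtypes made up more of the DKO-labelled library and AP1, the B cells and the endothelium made up less. VS1, VS2 and VS3 together held 1034 of 2800 cells (36.9%) in the DKO-labelled library and 636 of 2800 (22.7%) in the WT-labelled library, a share ratio of 1.63 (95% interval 1.47 to 1.8). Most of that gap lay in VS3, the shallow subtype with medians of 596 and 584.5 UMIs a cell, which held 351 and 72 cells. VS1 was alike in both, at 12.8% and 12.1% (ratio 1.06, 0.908 to 1.23), and VS2 was at 11.6% and 8.07% (1.44, 1.21 to 1.72). VS2 cells were also deeper in the DKO-labelled library, with medians of 1072.5 and 770 UMIs, and among cells with at least 1000 UMIs the VS2 ratio was 4.04.

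AP1 held 199 cells (7.11%) in the DKO-labelled and 305 (10.9%) in the WT-labelled library, a ratio of 0.652 (0.543 to 0.783), with medians of 3219 and 1834 UMIs a cell. AP2 did not differ beyond counting error, with 215 and 193 cells (1.11, 0.913 to 1.36). B cells (BC1) were 14 and 85 cells (0.165, 0.0864 to 0.292) and endothelial cells (EC1) 50 and 84 (0.595, 0.411 to 0.855). The erythroid subtype ET2 was larger in the DKO-labelled library, at 101 and 67 cells (1.51, 1.1 to 2.08). TC1, the largest T cell subtype, had 62 and 83 cells, and its ratio of 0.747 had an interval from 0.529 to 1.05.

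For subtypes whose own leading genes differed between the libraries only cell numbers are given. HS1 held 254 cells in the DKO-labelled and 75 in the WT-labelled library, while HS3 held 96 and 257 and FB1 held 221 and 402. In HS3, 9 of the 10 leading genes were past 1.5-fold lower in the DKO-labelled library, and in FB1 7 were lower and 1 was higher. Leading genes were ranked on the cells of both libraries together. The WT-labelled library gave most of those UMIs, 736221 against 235487 in HS3 and 805984 against 434051 in FB1. Genes high in that library could thus become leading genes, so these counts are not a separate difference. HS2 was even at 183 and 186 cells and macrophage subtype MP2 at 57 and 55, and MP1 held 82 and 118. Cells with 1% or more haemoglobin UMIs outside the erythroid subtypes numbered 130 and 100. They were uneven between subtypes, with 33 and 3 in AP2, 20 and 4 in HS2, 29 and 0 in VS2, 5 and 49 in FB1 and 1 and 20 in TC1. Without these cells 1112 genes rather than 1130 were past 1.5-fold over all cells, 138 rather than 167 in AP2 and 141 rather than 180 in TC1. In AP2, 42 genes were then higher and 96 lower.

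**Figure D1:**
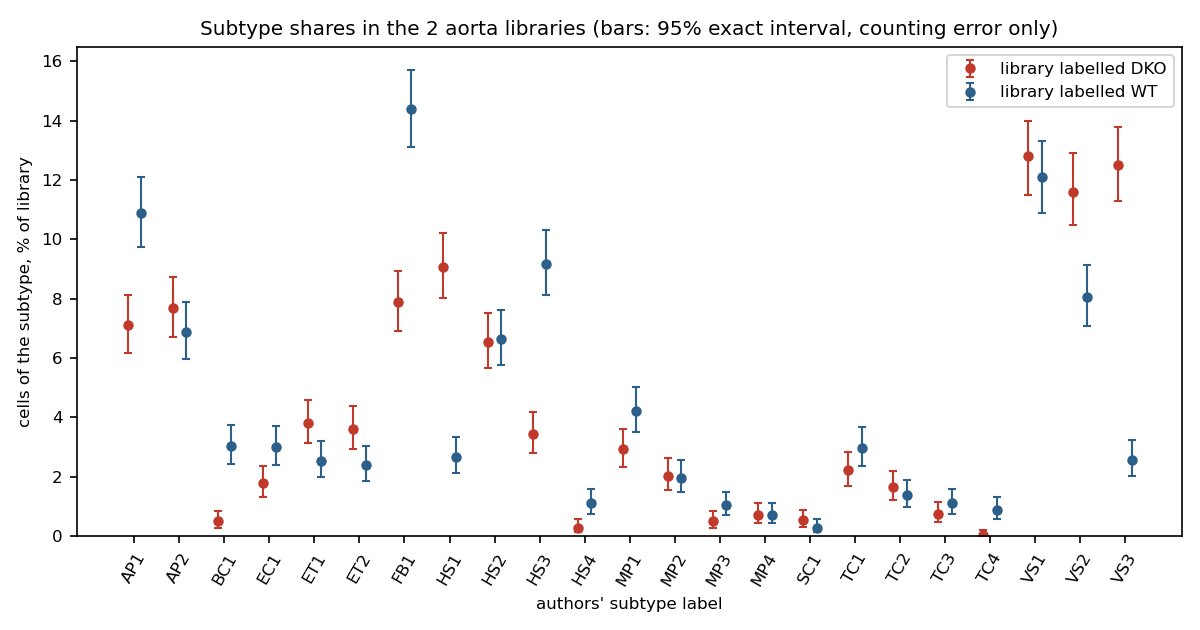
Share of all cells of each library (y axis, percent) taken by each subtype (x axis), for the DKO-labelled and the WT-labelled library, with exact 95% binomial intervals that cover counting error only. Subtypes with larger shares in the DKO-labelled library included VS2, VS3, HS1, ET1 and ET2. Those with larger shares in the WT-labelled library included AP1, FB1, HS3, EC1 and BC1. The leading genes of VS3, HS1, ET1, FB1 and HS3 differed between the libraries, so no share ratio is given for these.

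Over all cells, transcripts of Epn1 and Epn2 were not lower in the DKO-labelled library. Epn1 (chr7:5080235-5098178, mm10) had 206 and 192 UMIs over all cells, 33.1 and 30.1 CPM (ratio 1.10, 0.899 to 1.35). Epn2 (chr11:61517249-61579687) had 641 and 470 UMIs, 103 and 73.6 CPM, a ratio of 1.40 (1.24 to 1.58), and it was also above 1 in smooth muscle, at 247 and 124 UMIs (1.31, 1.05 to 1.64). Epn3 (chr11:94489599-94499974) had 0 and 2 UMIs. Within single subtypes, Epn2 was higher in VS1, at 178 and 93 UMIs (1.6, 1.23 to 2.07). On few UMIs, Epn1 was lower in MP2 (2 and 9, 0.145, 0.0152 to 0.699) and HS2 (10 and 22, 0.448, 0.189 to 0.986), and Epn2 in TC1 (1 and 10, 0.112, 0.00258 to 0.787). The sources used here do not say which cells or exons a deletion affects, so these counts do not check the label. Of 18 epsin and clathrin adaptor genes 17 had enough UMIs over all cells, and 0 of them passed 1.5-fold, with a median log2 ratio of -0.08. Dab2, at 376 and 578 UMIs (60.4 and 90.6 CPM), lay just inside that limit on the lower side.

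Apoe was at 4.66 and 5.64 CPM (29 and 36 UMIs) in the whole aorta, in both libraries. Among 14 lipoprotein and scavenger receptor genes with enough UMIs, 2 were higher and 0 lower in the DKO-labelled library, against 5.41% and 5.79% of all genes. The higher pair included Scarb1, the receptor for high-density lipoprotein, at a ratio of 1.64.

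Over all cells, 10084 genes held at least 100 UMIs, of which 5.41% were higher and 5.79% were lower in the DKO-labelled library. Genes of cartilage and mineralization stood at the low end. Of 20 genes on that list 17 had enough UMIs, 14 were lower and 0 higher, and their median log2 ratio was -1.67 against -0.0076 over all genes. The SIBLING genes of chromosome 5, which encode secreted acidic phosphoproteins of bone and tooth matrix, lie next to each other on the plus strand: Dspp, Dmp1 (chr5:104202613-104214102), Ibsp (chr5:104299171-104311469), Mepe (chr5:104325329-104338611) and Spp1 (chr5:104435118-104441050). The stretches upstream of the starts of the 4 of them with enough UMIs are shown because these neighbours were all lower in the DKO-labelled library over all cells. They are from RefSeq on GRCm38.p6, 5′ to 3′ on the plus strand, and each ends before the start in both RefSeq and GENCODE. Capitals mark the RUNX core TGTGGT and the box CCAAT, on either strand (ACCACA and ATTGG on the strand shown).
Dmp1, chr5:104202367-104202612: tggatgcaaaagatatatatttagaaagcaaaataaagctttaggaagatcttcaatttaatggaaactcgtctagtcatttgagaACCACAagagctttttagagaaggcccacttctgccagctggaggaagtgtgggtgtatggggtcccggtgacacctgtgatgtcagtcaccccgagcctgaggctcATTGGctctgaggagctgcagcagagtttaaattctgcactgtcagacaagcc
Ibsp, chr5:104299037-104299170: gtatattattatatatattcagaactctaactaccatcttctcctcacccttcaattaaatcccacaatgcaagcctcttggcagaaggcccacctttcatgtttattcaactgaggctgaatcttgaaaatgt
Mepe, chr5:104325079-104325328: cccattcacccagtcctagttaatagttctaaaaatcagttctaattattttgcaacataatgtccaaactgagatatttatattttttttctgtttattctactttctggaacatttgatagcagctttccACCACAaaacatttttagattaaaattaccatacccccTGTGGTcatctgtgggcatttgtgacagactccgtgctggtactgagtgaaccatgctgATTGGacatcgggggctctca
Spp1, chr5:104434861-104435110: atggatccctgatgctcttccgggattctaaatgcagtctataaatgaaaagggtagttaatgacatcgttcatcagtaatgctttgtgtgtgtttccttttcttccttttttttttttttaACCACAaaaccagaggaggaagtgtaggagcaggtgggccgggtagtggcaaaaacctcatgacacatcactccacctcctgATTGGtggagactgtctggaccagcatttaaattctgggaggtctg
The stretches of Dmp1, Mepe and Spp1 each held 1 ATTGG, and those genes held 1, 2 and 1 RUNX cores. The stretch of Ibsp is shorter because its RefSeq start lies 116 bases inside the GENCODE gene, and its only ATTGG falls in those bases and is not shown. In windows of 250 bases, a RUNX core was present upstream of 4 of 14 genes of the list with a RefSeq entry (28.6%) and of 15.9% of 27025 genes, and a CCAAT box upstream of 6 of 14 (42.9%) and of 37.5%. Of the 4 genes shown, only Ibsp is on that list, so the shares of the list do not describe Dmp1, Mepe and Spp1. These matches describe the letters only.

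Ibsp, bone sialoprotein, which seeds mineral in bone, was abundant in the WT-labelled library and scarce in the other. It had 238 UMIs in 103 cells of the DKO-labelled library and 11663 UMIs in 937 cells of the WT-labelled library, 38.2 and 1827.2 CPM (ratio 0.0209, 0.0183 to 0.0238). In the WT-labelled library 7653 of these UMIs were in HS3 and 2490 in FB1. Without FB1 and HS3 the ratio was 0.0372, and with every subtype given the same weight in both libraries it was 0.0463. Mepe had 0 and 181 UMIs, at least 58.9-fold lower, but in 12 cells of the WT-labelled library, with 72.9% of the UMIs in 2 cells. Dmp1 had 2 and 144 UMIs (0.0142, 0.00171 to 0.0524), in 19 cells of the WT-labelled library. Spp1, osteopontin, differed less, at 9131 and 17713 UMIs (0.528, 0.515 to 0.542). The thinner members of the group therefore rest on few cells, and Ibsp and Spp1 on many.

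The cartilage matrix genes were lower over all cells as well, where HS3 held 96 and 257 cells and FB1 221 and 402. Comp, a protein of cartilage and tendon matrix, was at 165 and 1618.2 CPM (1027 and 10329 UMIs, 0.102, 0.0955 to 0.109), and Col2a1, the main collagen of cartilage, had 339 and 4290 UMIs (0.081). Acan, the large cartilage proteoglycan, had 248 and 1165 UMIs (0.218), and Sox9, the transcription factor of cartilage cells, 460 and 1167 (0.404). Of 11 subtypes with at least 20 UMIs of Col2a1, 8 were past 1.5-fold lower and 1 was higher (4.84 in MP1). HS3, which Col2a1 leads, is among them, and the 20 UMIs were summed over both libraries. Among subtypes with at least 100 UMIs of Sox9, it was at 0.586 in FB1, 0.592 in AP1, 0.661 in HS3 and 1.12 in HS2. Col10a1, the collagen of mineralizing cartilage, had 6 and 1040 UMIs (0.00591, 0.00216 to 0.0129), of which 2 cells of the WT-labelled library held 76.8%, and its ratio was 0.017 without the 2 richest cells of each library. Alpl, the phosphatase that frees phosphate for mineral, had 27 and 339 UMIs (0.0816), and Tnfrsf11b, osteoprotegerin, 843 and 2748 (0.314). Runx2, the bone transcription factor, had 113 and 246 UMIs (0.471). Enpp1, which makes the mineral inhibitor pyrophosphate, Bmp4 and Msx1 stayed within 1.5-fold, at 0.729, 0.845 and 1.04. Col10a1 is not on the list. Also outside the list, Chil1, a secreted chitinase-like protein made by cartilage cells and macrophages, had 54 and 2016 UMIs (0.0275, 0.0205 to 0.036), and Ecrg4, a small secreted protein, 495 and 4859 (0.104, 0.095 to 0.115).

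Ibsp, Comp and Ecrg4 were lower in each compared subtype that held enough of their UMIs. Among the compared subtypes with at least 20 UMIs of the gene, Ibsp was past 1.5-fold lower in 13 of 13 (ratios from 0.00974 in EC1 to 0.174 in ET2), Comp in 15 of 15 (0.0155 in EC1 to 0.617) and Ecrg4 in 12 of 12 (0.0559 to 0.554). The lowest ratios, in EC1, rest on 1 UMI of the DKO-labelled library, with intervals of 0.000245 to 0.0554 for Ibsp and 0.000386 to 0.089 for Comp. Chil1 was lower in 9 of 9, and Tnfrsf11b in 10 of 13. These counts include HS3, which Ibsp and Comp lead, and FB1, which Ecrg4 and Tnfrsf11b lead. The 20 UMIs were summed over both libraries, so a subtype could enter through the WT-labelled library alone. Ibsp in AP2, for example, had 4 and 314 UMIs. The genes were also taken up because they were low over all cells, so the counts over subtypes are no separate support. Spp1, which also leads FB1, did not follow these genes, with 4 subtypes higher and 6 lower (0.229 in VS3 to 2.39 in MP2). In VS3, 2 cells held 73.8% of the Spp1 UMIs of the WT-labelled library. Cells that should not make bone sialoprotein also held some of its UMIs in the WT-labelled library, with 12 in erythroid ET1, 24 in ET2, 13 in T cell TC1 (53.5 CPM) and 62 in the B cells, against 1, 4, 1 and 0. The part of free RNA in the low values outside HS3 and FB1 was not tested.

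**Figure D2:**
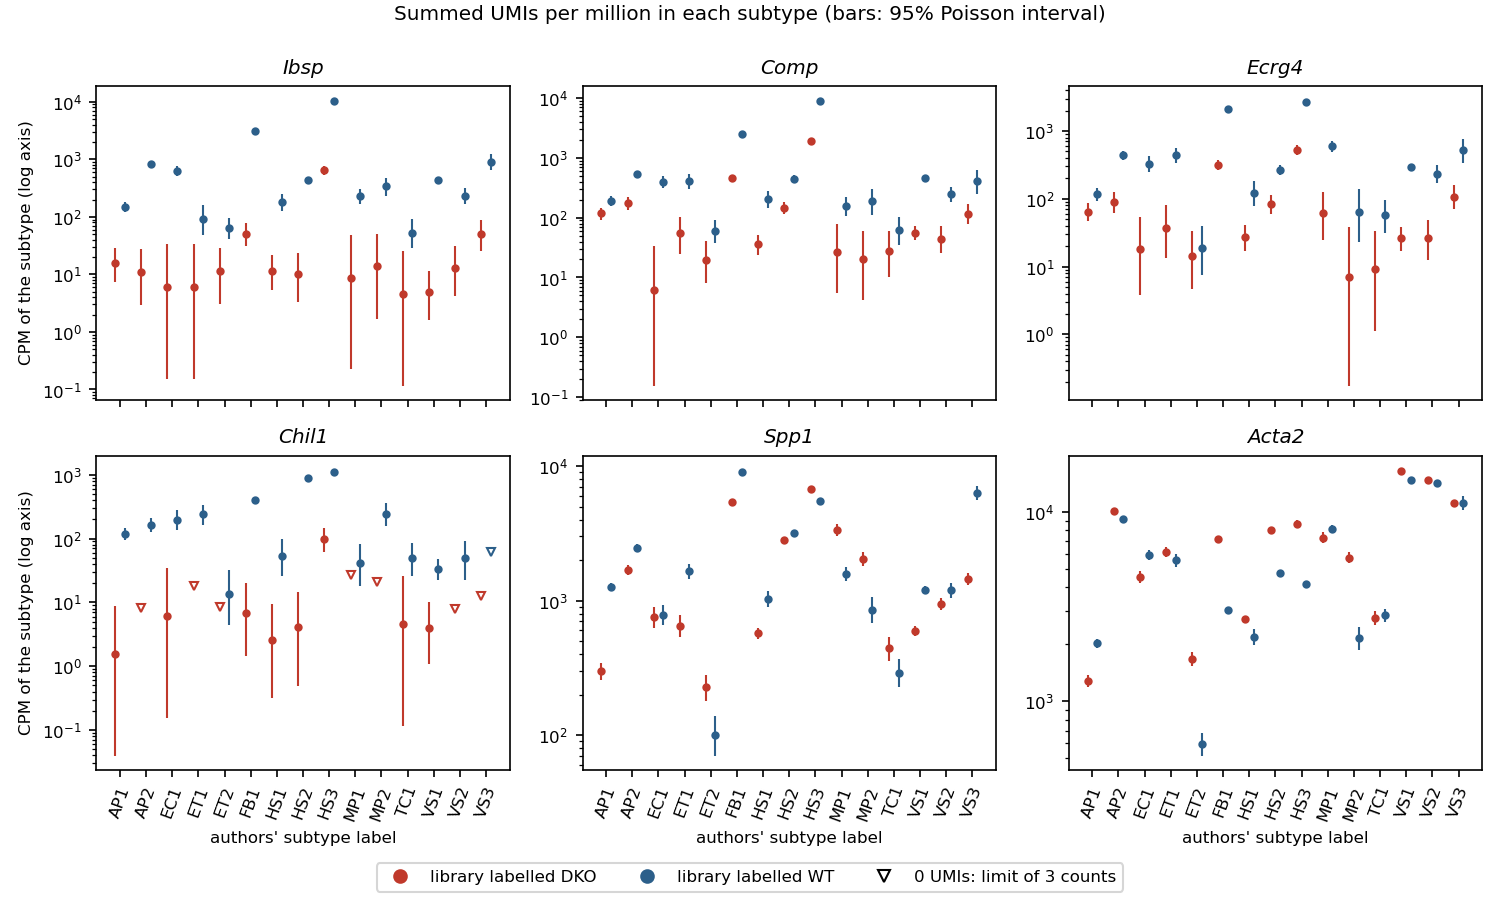
Level of Ibsp, Comp, Ecrg4, Chil1, Spp1 and Acta2 (y axis, CPM, log scale) in the 15 compared subtypes (x axis), for the DKO-labelled and the WT-labelled library, with exact 95% Poisson intervals that cover counting error only. Open triangles stand for 0 UMIs and are drawn at the limit that 3 counts set. Ibsp and Comp were lower in the DKO-labelled library in each subtype with at least 20 UMIs summed over both libraries, while Spp1 and Acta2 lay on either side.

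Within smooth muscle (VS1, VS2 and VS3 summed), 4321 genes had enough UMIs, and 3.15% were higher and 5.99% lower in the DKO-labelled library. With Gm42418, AY036118, mitochondrial and haemoglobin genes left out of the total, the numbers were 195 and 189 rather than 136 and 259. The same bone and cartilage genes led the lower side. Of the 10 genes of the cartilage and mineralization list with enough UMIs, 8 were lower and 0 higher, with a median log2 ratio of -1.21 against -0.08 over all genes. Ibsp was at 13.6 and 420 CPM (22 and 448 UMIs in 19 and 159 cells, ratio 0.0323, 0.02 to 0.0495), and Comp had 101 and 452 UMIs (0.147, 0.117 to 0.183). Ecrg4 had 62 and 311 UMIs (0.131, 0.0981 to 0.173) and Tnfrsf11b 91 and 273 (0.219, 0.171 to 0.279). Phex, a membrane peptidase of bone cells, had 17 and 113 (0.0988, 0.0556 to 0.165), and Mepe 0 and 110, all in 6 cells of VS1. Bmp2 at 0.744 and Enpp1 at 1.3 stayed within 1.5-fold. Each smooth muscle subtype had less Ibsp, with 5 and 361 UMIs in VS1 (0.0115), 5 and 43 in VS2 (0.0563) and 12 and 44 in VS3 (0.0545). The Ibsp levels of erythroid and T cells given above went the same way, and the part of free RNA was not tested.

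The lower side also held Sncg, gamma-synuclein, at 59 and 182 UMIs (0.213), Elmo1, a regulator of cell migration and engulfment, at 24 and 81 (0.195), and Sema3e, a guidance ligand, at 38 and 89 (0.281). On the higher side stood signalling, matrix and cytoskeletal genes. Camk1d, a calcium/calmodulin-dependent kinase, was at 2685.5 and 1074.6 CPM (2.5, 2.34 to 2.67), and Kcnab1, a potassium channel subunit, at 348 and 137 CPM (2.54, 2.11 to 3.07). Mfap4, an elastic fibre protein, was at 397 and 160 CPM (2.49, 2.1 to 2.96). Sphkap, an anchoring protein of protein kinase A, had 173 and 34 UMIs (3.34, 2.3 to 4.98), Rgs7, a regulator of G protein signalling, 123 and 27 (2.99) and Ank2, an ankyrin, 256 and 59 (2.85). The higher side held genes of unlike roles. Camk1d leads VS3, the subtype with 351 and 72 cells, and it was also higher in VS1 (2.19) and VS2 (1.93).

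In smooth muscle, the contractile genes themselves were close. Cnn1, Acta2, Myh11 and 3 others of the list lead the class and are left aside, and of the other 12 genes with enough UMIs 1 was higher and 0 lower. That gene was Actg2, gamma smooth muscle actin, with 261 and 100 UMIs (1.71). Postn, periostin, a matrix protein of injured vessels, had 1243 and 422 UMIs (1.94), and Vcan, versican, a large proteoglycan of the vessel wall, 350 and 98 (2.35). The metallothioneins Mt1 and Mt2, which bind zinc and copper, were lower, with 1091 and 1694 UMIs (0.423) and 247 and 358 (0.453). Spp1 was at 805 and 1436 CPM (0.561), and its WT-labelled value had 14.7% of the UMIs in 2 cells. Nuclear-retained and rRNA-linked transcripts differed too, and 5 of 11 were higher and 2 lower in smooth muscle. The part of those transcripts in the other differences was not tested.

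**Figure D3:**
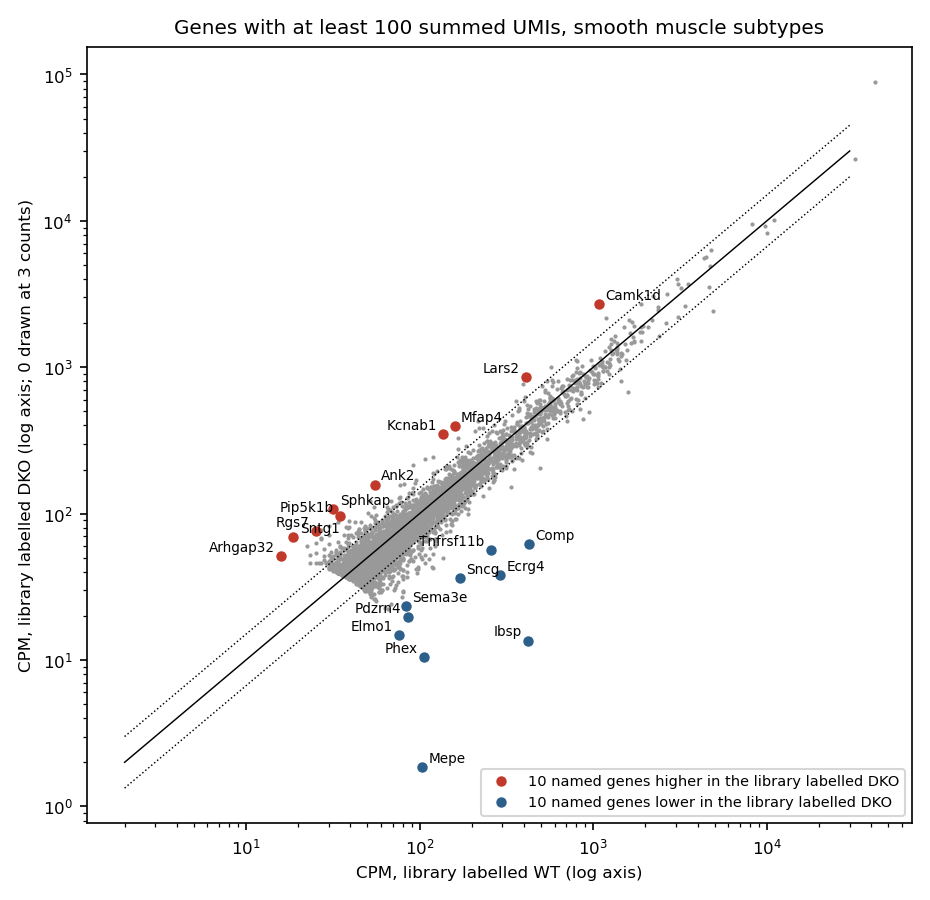
Level of each gene with at least 100 UMIs in smooth muscle (VS1, VS2 and VS3 summed), WT-labelled library on the x axis and DKO-labelled library on the y axis, both in CPM on log scales, with 20 named genes labelled. The lines mark equality and 1.5-fold. Ibsp, Comp and Ecrg4 lie below the lines, and Camk1d, Kcnab1 and Mfap4 above.

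Some contractile genes were higher over all cells of the DKO-labelled library, which also held the larger share of smooth muscle cells. Of 19 genes on the list 18 had enough UMIs over all cells, 5 were higher and 0 lower, against 5.41% and 5.79% of all genes, and the median log2 ratio was 0.47. With every subtype given the same weight in both libraries the median was 0.30 and 2 were higher. The 5 were led by Synpo2, an actin-bundling protein, at 2670 and 1484 UMIs (1.84) and Actg2 at 458 and 237 (1.98). Acta2, alpha smooth muscle actin, had 45872 and 34905 UMIs (1.35), and Myh11, smooth muscle myosin, 11073 and 7741 (1.47), both within 1.5-fold.

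The gap was widest in subtypes that are not smooth muscle. In FB1, 7.95% of 2164 genes were higher and 13.9% lower, and 16 of 16 contractile genes were higher, with a median log2 ratio of 1.19 against -0.07 over all genes. Cnn1, calponin, had 257 and 139 UMIs (3.43, 2.78 to 4.25), Myh11 823 and 512 (2.98, 2.67 to 3.34) and Acta2 3114 and 2443 (2.37). In HS3, 10.7% of 1694 genes were higher and 13.1% lower, and 14 of 16 contractile genes were higher, at a median of 0.92, with Acta2 at a ratio of 2.09. MP2 macrophages had 9 of 9 higher, at a median of 1.41, where 20.2% of 371 genes were higher and 16.7% lower, with Acta2 at 831 and 204 UMIs (2.65). Erythroid ET2 had 8 of 8 higher, where 50.9% of 116 genes were higher and 11.2% lower (30 and 42 genes with the total reduced as above), with Tagln at 289 and 84 UMIs (3.6). In HS2, 6 of 16 contractile genes were higher against 8.39% of 1705 genes, and in AP1 4 of 14 were lower against 7.22% of 2367 genes. In EC1 2 of 11 were lower and 0 higher, against 10.4% and 8.33% of 540 genes, with Myl9 at a ratio of 0.437 and Myh11 at 0.552. The direction was thus not the same in all subtypes.

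The summed smooth muscle markers move with these counts. They were at 15012.1 and 6526.2 CPM in FB1, at 16595.4 and 8000.3 CPM in HS3, at 11112.8 and 4453.5 CPM in MP2 and at 3385.1 and 1052.7 CPM in ET2, and at 2650.5 and 4091.7 CPM in AP1. Haemoglobin genes took 515430.6 and 305891.6 CPM of ET1 and 800044.7 and 889319.2 CPM of ET2, so the marker sums there depend on the scale. With the whole total, ET1, at 12164 and 11328.5 CPM, and TC1, at 5326.6 and 6178.3 CPM, were nearly even. Acta2 in TC1 was at 2762.3 and 2842.4 CPM. Red cells and T cells should hold none of these transcripts. The parts of free RNA and of doublets with smooth muscle cells were not tested.

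**Figure D4:**
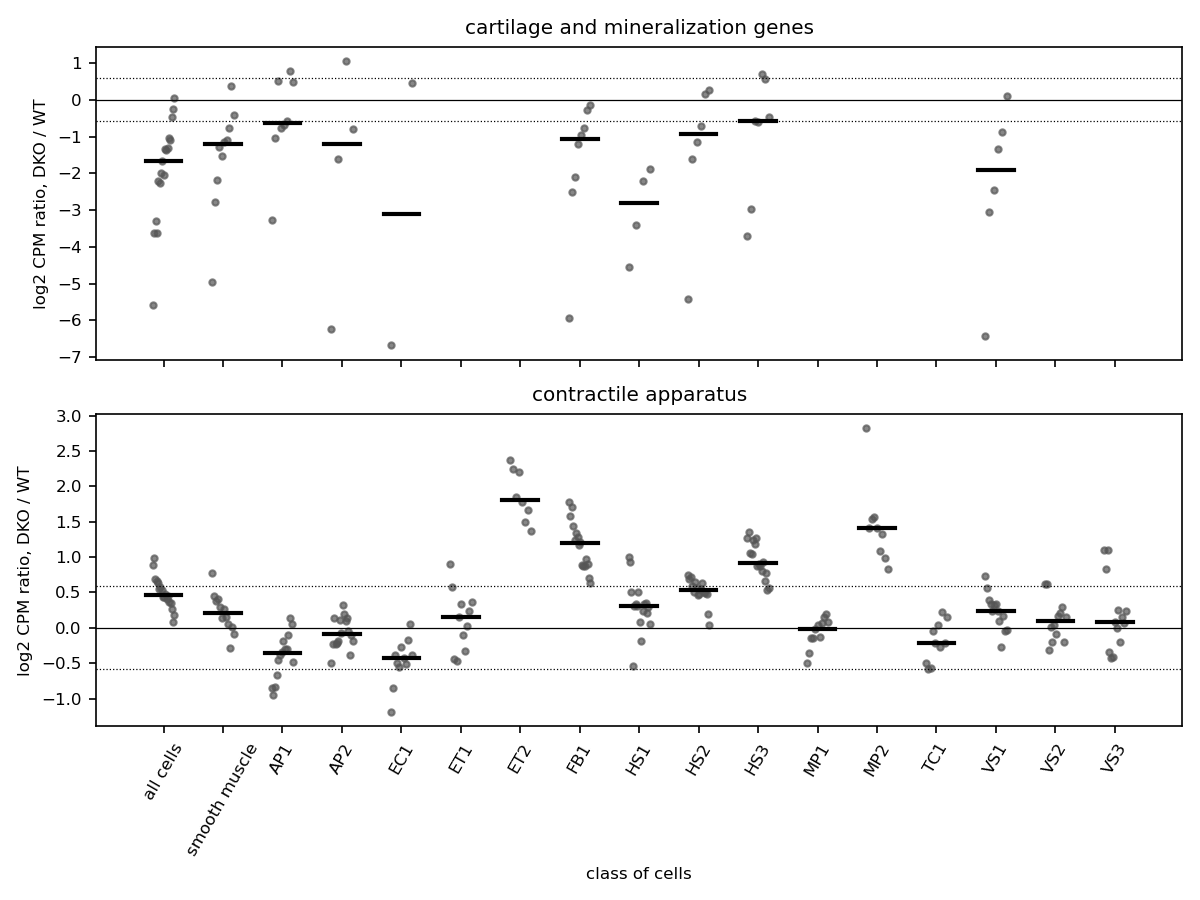
Log2 ratio of DKO-labelled over WT-labelled level (y axis) for each gene of the cartilage and mineralization list and of the contractile list in each compared group of cells (x axis). Points are genes with at least 100 UMIs, black bars are medians, and dotted lines mark 1.5-fold. Cartilage and mineralization genes lie mostly below 0, and contractile genes lie above 0 in FB1, HS3, MP2 and ET2.

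A small set of genes, picked out after their values were seen, differed the same way in nearly all subtypes. Rgs5, a regulator of G protein signalling of pericytes and smooth muscle, was at 706 and 254 CPM over all cells (4400 and 1622 UMIs, 2.78) and was above 1 in 14 of 15 subtypes with 20 or more UMIs, 12 of them past 1.5-fold. Postn (2925 and 1458 UMIs, 2.06) and Camk1d (12258 and 5950 UMIs, 2.11) were each above 1 in 14 of 15, with 12 past the fold. These counts take in VS1 and VS2, which Rgs5 leads, and VS3, which Camk1d leads. Nox4, an oxidase that makes hydrogen peroxide in vessels, was above 1 in 14 of 14 subtypes, 11 past the fold. On the lower side Mt1 (4551 and 10597 UMIs, 0.44) was past 1.5-fold lower in 12 of 15 subtypes, with ET2 the exception above 1 at 1.32, and Mt2 in 11 of 14. With the total reduced as above, the median log2 ratio of all ET2 genes went from 0.62 to -0.11. The direction of Mt1 in ET2 therefore depends on the scale. In VS3 the Mt1 ratio was 0.378 over all its cells and 2.98 among those with at least 1000 UMIs, and 53% of the Mt1 UMIs of the WT-labelled library were in 2 cells. Without the 2 cells of each library with the most Mt1 UMIs it was 0.744. Cdk8, a kinase of the Mediator complex, was below 1 in 15 of 15, 8 of them past the fold, and Dcn, decorin, was lower in 11 of 15.

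Gm42418, a transcript that overlaps ribosomal RNA, moved with these genes. It was at 60291.3 CPM in the DKO-labelled and 29678.9 CPM in the WT-labelled library (2.03) and was above 1 in 15 of 15 subtypes, from 1.17 in AP1 to 2.74 in ET2, with VS2 and VS3, which it leads, among them. Mitochondrial transcripts were at 27405.3 and 23123.2 CPM (1.19). When Gm42418, AY036118, the mitochondrial and the haemoglobin genes were left out of the total, 696 genes were higher and 472 lower over all cells (59.6% of those past the fold were higher, 48.3% with the whole total). With every cell weighted alike 469 were higher and 959 lower (32.8%). The part of these transcripts in the shared differences was not tested.

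**Figure D5:**
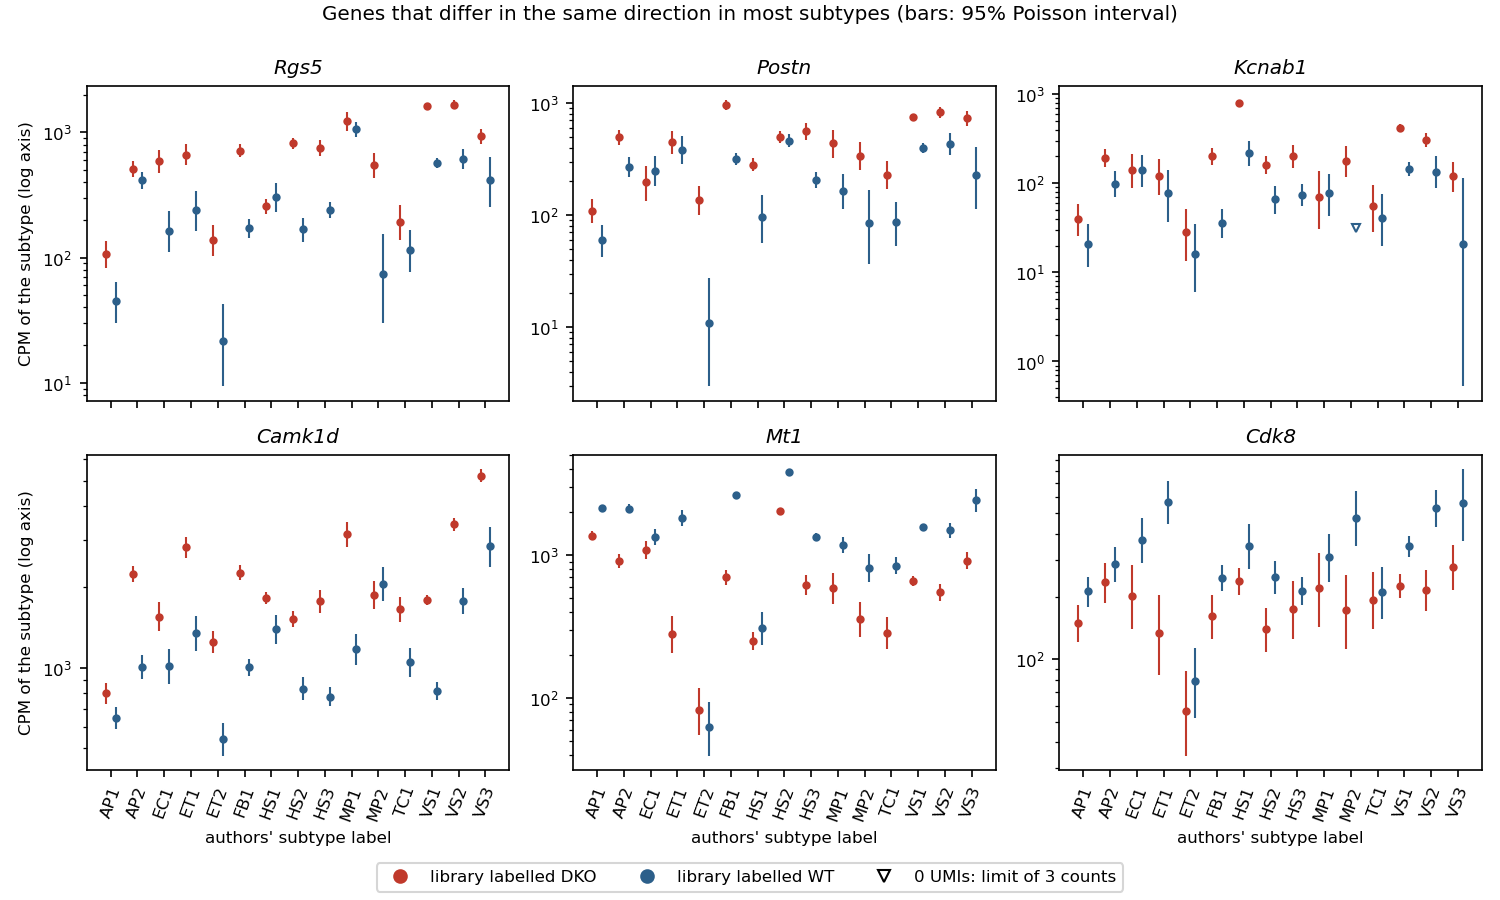
Level of Rgs5, Postn, Kcnab1, Camk1d, Mt1 and Cdk8 (y axis, CPM, log scale) in the 15 compared subtypes (x axis) for both libraries, with exact 95% Poisson intervals that cover counting error only. Rgs5, Postn and Camk1d were higher in the DKO-labelled library in 14 of 15 subtypes each, VS subtypes that Rgs5 or Camk1d lead among them, and Cdk8 lower in 15 of 15.

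In fibroblast-like AP1, 5.37% of 2367 genes were higher and 7.22% lower. Of 14 genes of the unfolded protein response 4 were higher and 0 lower, of 13 chemokine, cytokine and adhesion genes 4 were higher and 0 lower, and of 14 heat shock genes 0 were higher and 4 lower. Txnip, a thioredoxin inhibitor, had 353 and 137 UMIs (2.71, 2.22 to 3.33), Manf, an endoplasmic reticulum stress factor, 284 and 122 (2.45, 1.98 to 3.06) and Tsc22d3, a glucocorticoid-induced leucine zipper protein, 265 and 126 (2.22, 1.79 to 2.76). The chemokine Ccl7 was at a ratio of 2.05 and Ccl2 at 1.65. Erbb4, a receptor for neuregulins, had 16 and 201 UMIs (0.0838, 0.047 to 0.14), Clu, clusterin, 86 and 340 (0.266) and Spp1 191 and 852 (0.236). Of the 8 cartilage and mineralization genes with enough UMIs in AP1 4 were lower and 1 was higher. Cytl1, of the same list, was at 0.398 over all cells, 0.393 in VS1 and 0.823 in FB1. It was above 1 in AP1 (1.43, 1.23 to 1.66), AP2 (2.07, 1.65 to 2.61), EC1 (1.38) and HS2 (1.2). In AP2, 5.38% of 1283 genes were higher and 7.64% lower, or 92 and 72 genes with the reduced total. Lcn2, a siderophore-binding acute-phase protein, had 134 and 27 UMIs (5.18, 3.41 to 8.15) there, and its ratio was 2.74 without the haemoglobin-carrying cells. The matrix protease Mmp3 had 198 and 93 (2.22), with 50.5% of the UMIs in 2 cells and a ratio of 1.28 without them. Hp and Mmp13, with 1 and 103 and with 1 and 101 UMIs, were lower in AP2 (Hp 0.0101, 0.000254 to 0.0577, and Mmp13 0.0103, 0.000259 to 0.0589). The Hp UMIs of the WT-labelled library were in 13 cells with 60.2% in 2 of them, and the Mmp13 UMIs in 4 cells with 66.3% in 2.

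FB1 and HS3, which hold the mineralization genes, also differed in other genes. Of the list's members that do not lead them, 6 of 8 were lower in FB1 (median log2 ratio -1.08), and 3 of 7 were lower and 1 higher in HS3. In FB1, Kcnab1 had 87 and 29 UMIs (5.57, 3.62 to 8.8), Rgs5 311 and 138 (4.18) and Sost, sclerostin, a bone and smooth muscle inhibitor of Wnt signalling, 102 and 39 (4.86). Dmp1 and Myoc, myocilin, had 0 UMIs in the DKO-labelled FB1 cells and 114 and 101 in the WT-labelled ones, in 13 and 20 cells, with 71.1% of the Dmp1 UMIs in 2 cells. In HS3 Alpl had 0 and 122 UMIs, at least 13-fold lower, and Fap, a fibroblast surface protease, 6 and 267 (0.0703, 0.0256 to 0.155). Csmd1 had 93 and 8 UMIs (36.3, 17.7 to 86.7) and Thbs1, thrombospondin, 67 and 38 (5.51, 3.65 to 8.44) on the higher side. Bmp2 was higher in HS3, at 276 and 168 CPM (1.64, 1.19 to 2.23), so not every gene of the list was lower there.

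In HS2, 8.39% of 1705 genes were higher and 6.51% lower. Col8a1, a short-chain collagen of injured vessels, had 373 and 67 UMIs (5.49, 4.22 to 7.23), Ptgs2, cyclooxygenase, 331 and 90 (3.62, 2.86 to 4.63) and Saa3, a serum amyloid protein, 156 and 28 (5.49). Chil1 had 2 and 431 UMIs (0.00457, 0.000552 to 0.0166), of which 60.8% were in 2 cells. Of 18 immediate early and dissociation stress genes with enough UMIs 8 were lower, with a median log2 ratio of -0.48, among them Fos with 911 and 1402 UMIs (0.64). Cartilage and mineralization genes were lower in 4 of 6. In HS1, with 254 and 75 cells, 19.2% of 1950 genes were higher and 12.2% lower, among them Dtna, a dystrobrevin, at 155 and 7 UMIs (5.39, 2.55 to 13.6) and Prg4, lubricin, at 16 and 176 (0.0221). The 176 Prg4 UMIs were in 7 cells, with 76.7% in 2 of them.

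The macrophage subtypes went opposite ways for genes that present antigen to helper T cells. In MP1, 4.53% of 397 genes were higher and 12.3% lower, or 21 and 35 genes with the reduced total. Of the 4 class II genes with enough UMIs 3 were lower in the DKO-labelled library (median log2 ratio -0.68), with H2-Aa at 48 and 186 UMIs (0.441) and Cd74 at 147 and 395 (0.636). In MP2 4 of 4 were higher (median 1.84), with H2-Aa at 194 and 11 (11.5, 6.28 to 23.4) in 21 and 5 cells, and Cd74 at 551 and 115 (3.12). The difference between the subtypes was not tested. Summed macrophage markers were at 7762 and 10156.3 CPM in MP1 and at 8923.4 and 6531.8 CPM in MP2. In MP1 Fn1, fibronectin, had 386 and 155 UMIs (4.26, 3.52 to 5.16), Ctsl, a lysosomal protease, 175 and 92 (3.25) and Spp1 383 and 308 (2.13). Penk, the enkephalin precursor gene, had 0 and 262 UMIs in MP1, at least 51.1-fold lower, in 33 cells, beside fibroblast markers at 3358 and 5409.9 CPM, whose part was not tested. In MP2 Lyz2, lysozyme, had 287 and 33 UMIs (5.66), with 46.3% of them in 2 cells, and Hmox1, haem oxygenase, 73 and 186 (0.256), where 2 cells held 79% and the ratio without them was 0.735.

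The endothelial, T and red cell subtypes were thin. In EC1, with 50 and 84 cells, 8.33% of 540 genes were higher and 10.4% lower. Lymphatic markers summed to 889 CPM in the DKO-labelled and 5.67 CPM in the WT-labelled library. Among them Prox1, the lymphatic transcription factor, had 18 UMIs in 5 cells and 0 UMIs, Lyve1 65 and 1 and Mmrn1 54 and 0. Ccl21a, a lymphatic chemokine that leads EC1, had 111 and 0 UMIs over all cells, in 6 cells. Fabp4, a fatty acid carrier of small vessels, had 247 and 22 (12.1, 7.84 to 19.7), with 75.3% in 2 cells and a ratio of 3.93 without them, and Ramp2, a receptor partner of endothelium, 109 and 32 (3.68, 2.46 to 5.65). In TC1, 10.2% of 837 genes were higher and 11.4% lower. Clu had 53 and 230 UMIs (0.258, 0.188 to 0.349) and Dcn, a gene of fibroblasts, 40 and 154 (0.291). Without the haemoglobin-carrying cells these ratios were 0.55 and 0.441. With all cells kept, the summed fibroblast markers of TC1 were at 1289.1 and 2208.9 CPM. In ET2 Tmsb4x, an actin-binding peptide, had 475 and 116 UMIs (4.28, 3.49 to 5.29) and Ucp2, a mitochondrial carrier, 161 and 359 (0.469). ET1 had 46.2% of 197 genes lower and 3.05% higher in the DKO-labelled library. With the reduced total 42 were higher and 23 lower, and the median log2 ratio of all its genes went from -0.55 to 0.20, so the direction of ET1 genes depends on the scale.

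The single smooth muscle subtypes added a few genes. In VS1, 4.55% of 3274 genes were higher and 5.25% lower (178 and 136 genes with the reduced total), with Ntf3, a neurotrophin, at 102 and 22 UMIs (3.86, 2.42 to 6.44). Of 6 cartilage and mineralization genes 5 were lower in VS1, at a median log2 ratio of -1.90. In VS2, 5.13% of 819 genes were higher and 6.23% lower, or 66 genes and 27 genes with the reduced total. It had Mfap4 at 144 and 18 UMIs (3.87), Nox4 at 154 and 32 (2.33) and Mt1 at 210 and 275 (0.37). In VS3, 14.5% of 331 genes were higher and 27.5% lower, or 66 and 61 genes with the reduced total. Postn had 177 and 11 UMIs (3.22, 1.75 to 6.56) there and Sparc, osteonectin, 601 and 287 (0.419). In the WT-labelled library 2 cells held 31.7% of the Sparc UMIs of VS3. The ribosomal protein genes of VS3 were low, with 18 of 22 past 1.5-fold and a median log2 ratio of -0.88. Spp1 in VS3 was at 350 and 305 UMIs (0.229), of which 2 cells held 73.8% in the WT-labelled library, and the ratio was 0.765 without them.

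Over all cells, where 5.41% of all genes were higher and 5.79% lower, several other lists also held genes past 1.5-fold. Collagen genes had 6 of 16 lower, with Col1a1 at 10429 and 19035 UMIs (0.561), and proteoglycan and matricellular genes 8 of 21 lower and 2 higher, among them Sparc at 0.452 and Fmod at 0.389. The unequal subtype shares also enter these ratios. Within the compared subtypes Col1a1 was past 1.5-fold lower in 5 of 15 and higher in 1, with FB1, which it leads, among the 15. Its median ratio was 0.756. Sparc was lower in 5 of 15 and higher in 1, with a median of 0.764. Of 21 chemokine, cytokine and adhesion genes 4 were higher and 2 lower, with Ccl5 at 391 and 865 UMIs (0.463). Cholesterol efflux and lipid-loading genes were 2 higher, Fabp4 (1.97) and Fabp5 (1.74), and 2 lower of 18, and cholesterol synthesis 2 lower of 17. Metallothionein, iron and oxidative defence genes were 5 lower of 19, and the unfolded protein response and heat shock genes 0 of 18 and 0 of 14. Interferon-stimulated genes were 1 higher and 1 lower of 15, complement genes 2 lower of 14 and elastic fibre genes 1 higher of 19.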

How the data were processed

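Single-cell RNA counts of the 2 aorta libraries were used. The authors deposited raw UMI counts for 24309 genes with a cell table, and per the submitters' processing notes the reads were processed with Cell Ranger 7.1.0 and mm10. The counts of each cell summed to its listed total (0 of 5600 cells differed). The deposited cells held 499 to 8613 UMIs and 201 to 2499 genes, with at most 5% mitochondrial counts. The sources do not say how the authors filtered cells or treated doublets. No doublet caller was run. Another 27 columns of the cell table were not used.

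Counts were summed by library and by the authors' subtype with Python 3.11.15, numpy 2.4.6, pandas 2.3.3 and scipy 1.17.1. Ratios were compared with a 1.5-fold limit at 100 or more summed UMIs, in 15 of 23 subtypes with 50 or more cells in both libraries. The other 8 hold 139 and 268 cells. Intervals are exact (Poisson for levels, conditional binomial for ratios, Clopper-Pearson for shares). A count of 0 was set at 3 counts for a lower bound on a fold. The 10 leading genes of a subtype are those at 200 CPM or more and at least 2-fold over the other cells after adding 20 CPM. Genes were named by the ratio bound nearest to 1, 10 each way in smooth muscle and 5 each way in a subtype, leaving out leading genes, unnamed Gm and Rik models, AY036118, ribosomal protein, mitochondrial and haemoglobin genes. Members of 29 gene lists were named beside them, and 24 marker lists were summed. A share ratio was printed where at most 5 leading genes were past 1.5-fold. Members and lists were chosen with earlier results of these data known. The scripts were tested on simulated data. Alternatives changed the scaling, the cells kept, the weighting of cells and the minimum count. Some genes are not reported here.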

Additional observations from a re-analysis of the deposited data

How the results depend on the processing

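Counts of genes past 1.5-fold depend on the minimum number of UMIs. With 100, 50 and no UMIs required they were 1130, 1762 and 8609 over all cells, 395, 885 and 9298 in smooth muscle, 298, 736 and 9041 in AP1, 167, 451 and 9143 in AP2, 101, 323 and 9183 in EC1 and 97, 224 and 8608 in ET1. They were 72, 167 and 7141 in ET2, 472, 1001 and 9729 in FB1, 612, 1253 and 12195 in HS1, 254, 610 and 9193 in HS2, 403, 899 and 10624 in HS3 and 67, 223 and 9151 in MP1, and 137, 321 and 9743 in MP2, 180, 441 and 8392 in TC1, 321, 736 and 8522 in VS1, 93, 300 and 9005 in VS2 and 139, 324 and 9789 in VS3. Other settings left 82 of the counts within 1.5 times and moved 3: 59 in ET1 with median-of-ratios scaling (97), 123 in MP1 with every cell weighted alike (67), and 12 in VS3 among cells with at least 1000 UMIs (139).

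Values as reported stand in parentheses. The share ratio of AP1 was 0.818 among cells with at least 1000 UMIs (0.652), that of VS2 4.04 there and 2.28 among cells with at least 500 genes (1.44), and that of ET2 4.33 among cells with at least 500 genes (1.51, on 4 and 1 cells). The other 43 share ratios under other settings stayed within their counting error. Among gene ratios under other settings, 1018 kept their size, 130 moved and 3 changed direction. Those 3 were Olfr1033 in EC1, at 0.831 without the 2 richest cells of each library (2.75), and in VS3, among cells with at least 1000 UMIs, Spp1 at 1.25 (0.229) and Mt1 at 2.98 (0.378). The cause was not tested. Ccl21a, at 0 UMIs in the WT-labelled library, and Postn in VS3 among cells with at least 1000 UMIs gave no ratio. Among list medians 436 kept their size and 51 moved.

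Fixed subtype weights, leaving out FB1 and HS3, and leaving out the 2 richest cells were chosen after seeing the data. No paired analysis was possible because each group has 1 library. Leaving out a replicate was not possible for the same reason. Depth limits the thin subtypes, with 540 genes at 100 UMIs in EC1, 397 in MP1, 371 in MP2, 331 in VS3, 197 in ET1 and 116 in ET2. Differences between mice, preparations and sequencing runs cannot be told apart from the labels.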

Other observations

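Several genes with few UMIs a cell differed in 1 direction across many subtypes, and they are given as values. All 5 passed 1.5-fold over all cells, and Sphkap is also named above in smooth muscle. Gbp2b, a guanylate-binding protein of the interferon response, had 4 UMIs in 4 cells of the DKO-labelled library and 178 UMIs in 158 cells of the WT-labelled library, with at most 5 UMIs in a cell. Its CPM was higher in the WT-labelled library in 20 of the 20 subtypes with a UMI. Eif3j2, a copy of a translation initiation factor gene, went the other way, with 138 UMIs in 129 cells and 13 UMIs in 13 cells, higher in the DKO-labelled library in 17 of 18 subtypes. Eif3j2 shares sequence with its near copy, so its counts are uncertain. AA465934 had 100 UMIs in 95 cells and 9 in 9 cells, higher in 18 of 19 subtypes. Sphkap had 398 UMIs in 319 cells and 86 UMIs in 82 cells and was higher in 18 of 20. Kank4, a cytoskeletal adaptor, had 173 UMIs in 140 cells and 32 in 32 cells, higher in 15 of 19. These counts over subtypes were taken after the genes' values were seen. A subtype counted with a UMI in either library, so the counts follow in large part from the totals.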
